A study of Homo sapiens with 2 samples.

Results

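TRPS1, the gene of the transcription factor that was expressed and mapped in this study, was described here as a target of its own Flag signal. It is 1 of 20136 protein-coding genes in the annotation, and it was chosen by its identity, with its peaks in these lists already known, so every value below describes the locus and none tests it. The gene (ENSG00000104447.13_15) lies on the minus strand of chromosome 8 at 116420724 to 116821899 in hg19, over 401 kb. Peaks were taken from the gene and 100 kb on each side (116320724 to 116921899, 601 kb), by their midpoint. This region held 29 of the 173304 peaks of the TRPS1-WT list and 81 of the 325573 peaks of the TRPS1-MT list.

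TRPS1 is a nuclear zinc finger protein with a GATA-type finger, which recognises the sequence that GATA factors bind, and with Ikaros-type fingers at its C-terminal end that recruit corepressors. It is mainly known as a transcriptional repressor of cartilage, bone, hair follicle and breast epithelium development. Loss of a copy of the gene causes tricho-rhino-phalangeal syndrome, in which hair, nose and finger bones are affected. GATA factors and many other regulators bind their own genes, so the introns and promoters of TRPS1 are places where such binding would be looked for.

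Both libraries came from HCT116, a human colorectal carcinoma cell line of epithelial origin. The cells had been infected with a lentivirus that carries full-length human TRPS1 with a 3×Flag tag, either the wild type (TRPS1-WT) or the mutant R544Q (TRPS1-MT), and had been selected with puromycin, so that both kept the endogenous TRPS1 gene beside the construct. CUT&Tag was performed with a Flag antibody: the antibody brings a Tn5 transposase to the tagged protein, and the transposase cuts and tags the DNA nearby, which is then sequenced. There was 1 library per condition, so no difference between them could be tested, and the 95% intervals given cover counting error only. No library of the empty vector or of an unrelated antibody was used here, and the level that the locus would have without Flag-TRPS1 is therefore not known.

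For each peak the authors' caller gave a fold over the local background and −log10 p, from which the number of tags (mapped reads extended to fragment length) stacked at the summit was recovered, together with the number the caller expected there. The median peak had 14.0 tags in the TRPS1-WT list and 17.0 in the TRPS1-MT list, over a genome-wide background of 1.104 and 1.768 tags. The narrowest peak was 168 bp wide in TRPS1-WT and 280 bp in TRPS1-MT cells, and 69.6% and 82.2% of the peaks had exactly this width. The lists differ in size, background and narrowest width, and tags were not scaled between the libraries. Reads extended to a greater length stack up to more tags at equal depth, and the extension lengths were not corrected for. A higher tag number in TRPS1-MT cells therefore need not mean more depth or more binding. Of 10 colon epithelial genes, 4 (CDX2, EPCAM, KRT8 and VIL1) had a promoter peak in both lists and 3 (CDH17, LGALS4 and HNF4A) in the TRPS1-MT list alone, whereas CDX1, KRT18 and KRT20 had none in either list. Over all protein-coding genes 67.5% had a promoter peak in the TRPS1-WT list and 76.5% in the TRPS1-MT list, so these counts of 4 and 7 are not above the share of all genes. They do not check the cell type, since a promoter peak of Flag-TRPS1 does not measure expression.

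The 29 TRPS1-WT peaks of the region fell on coding exons (5), a promoter (1), introns of the canonical transcript (11), the intron that lies upstream of it in the transcript with the farthest start (4), the upstream flank (5) and the downstream flank (3). The 81 TRPS1-MT peaks fell on coding exons (5), promoters (2), introns (34), the upstream intron (18), the upstream flank (11) and the downstream flank (11). No peak of either list lay on a noncoding exon. The number of coding exon peaks was thus equal in the lists, while promoters, introns and both flanks held more peaks in the TRPS1-MT list.

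**Figure D1:**
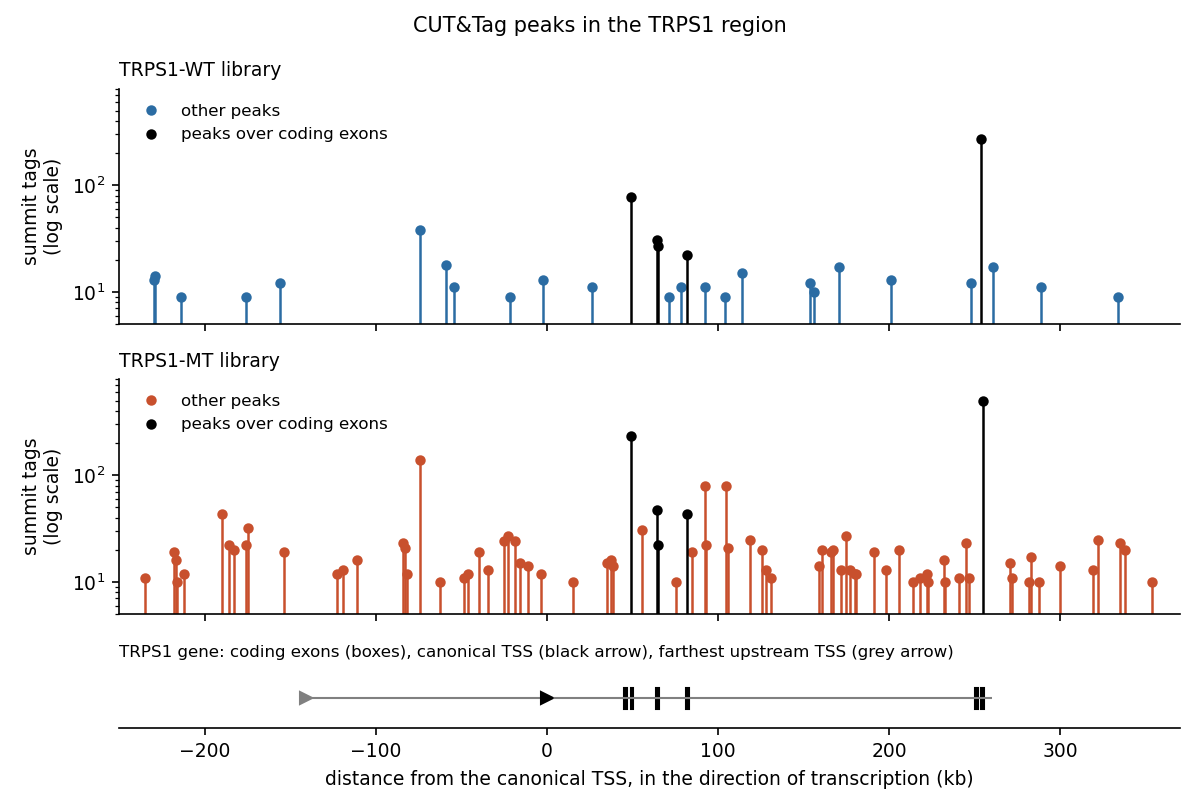
Summit tags (log scale) of each peak of the TRPS1 region in the TRPS1-WT list (top) and the TRPS1-MT list (bottom), against the distance in kb from the canonical transcription start site (TSS) in the direction of transcription. Black points are the 5 peaks over coding exons in each list, of which the tallest (273 and 497 tags) lie on exon 7, and coloured points are the 24 and 76 other peaks.

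The strongest signal at TRPS1 lay over its coding exons 7 and 3. The canonical transcript (TRPS1-203) spans 260 kb in 7 exons, of which 6 carry the 3882 bp of coding sequence (1294 codons). Of the 4 coding exons longer than 500 bp, namely exons 3, 4, 5 and 7, all carried a peak in both lists. Among the long coding exons of other genes (7999 exons), a peak lay on 652 (8.15%) in the TRPS1-WT list and on 1405 (17.6%) in the TRPS1-MT list. The short coding parts of exon 2 (37 bp) and exon 6 (123 bp) carried no peak in either list. All 10 summits were inside coding sequence.

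Exon 7, which holds the end of the coding sequence and the stop codon and then runs on into the 3′ UTR, carried the highest peak in each list. In TRPS1-WT cells it had 273 tags (exact Poisson interval 242 to 307) at 116426246 to 116427226, and its fold was 19.7, with a −log10 p of 252. In TRPS1-MT cells it had 497 tags (454 to 543) at 116426134 to 116427059, and its fold was 22.6, with a −log10 p of 479. They were stronger than 98.8% and 99.7% of the peaks of their lists by −log10 p. The local background that the caller set there was also high, 11.7 times the genome-wide level in TRPS1-WT and 11.9 times in TRPS1-MT cells. In TRPS1-WT cells the nearest peaks on either side, at 116419842 to 116420009 and 116432981 to 116433148, stood at the genome-wide level. In TRPS1-MT cells those at 116410479 to 116410758 and 116433801 to 116434080 stood at or near that level. How far the tags of the exon 7 peak itself enter its local background was not tested.

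Exon 3, the first long coding exon, came next. Its TRPS1-WT peak (116631374 to 116632245) had 78 tags (61.7 to 97.3), with a fold of 16.0. Its TRPS1-MT peak (116631449 to 116632185) had 233 tags (204 to 265), with a fold of 22.7. The local background was 3.56 and 5.26 times the genome-wide level. The protein-coding transcript TRPS1-208 starts beside this exon (TSS at 116632297), so the exon 3 peaks also fall in a promoter window, but they were kept with the coding exons.

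Exons 4 and 5 had lower peaks, below the strongest noncoding peak of the region in each list. Exon 4, which holds the codon changed by R544Q, carried 2 peaks in each list. In TRPS1-WT cells these had 27 tags (17.8 to 39.3) at 116616253 to 116616491 and 31 tags (21.1 to 44.0) at 116616592 to 116616901. In TRPS1-MT cells they had 22 tags (13.8 to 33.3) at 116616089 to 116616368 and 47 tags (34.5 to 62.5) at 116616468 to 116617231. That codon was under a peak in the TRPS1-MT list and between peaks in the TRPS1-WT list. Exon 5 had 22 tags (13.8 to 33.3) at 116599282 to 116599660 in TRPS1-WT cells and 43 tags (31.1 to 57.9) at 116599256 to 116599535 in TRPS1-MT cells. By tags, the order of the exons was 7, 3, 4 and 5 in both lists, and the intervals of exons 4 and 5 overlapped. Set among the peaks on long coding exons of all other genes (median 14.0 tags in TRPS1-WT, 19.0 in TRPS1-MT), the exon 7 peaks exceeded 97.7% and 99.0%, the exon 3 peaks 91.1% and 97.8%, and the weakest peaks 70.6% (exon 5, TRPS1-WT) and 57.9% (exon 4, TRPS1-MT).

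The peaks stayed within the exons. In the TRPS1-WT list 4 of the 5 peaks lay wholly inside coding sequence, and the exon 7 peak ran 8 bp past the end of the coding sequence. In the TRPS1-MT list the exon 5 and exon 3 peaks lay wholly inside, the exon 4 peaks ran 11 bp and 2 bp into the introns, and the exon 7 peak ran 120 bp into the 3′ UTR, with 87.0% of its length inside coding sequence. The TRPS1-WT peak on exon 3 was 872 bp wide and ended 15 bp and 42 bp short of the exon's ends. Of the intron sequence within 1 kb of a coding exon (10879 bp), 0 bp was under a peak in TRPS1-WT and 13 bp in TRPS1-MT cells.

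In all, peaks covered 2773 of the 3882 coding bases of TRPS1 (71.4%) in the TRPS1-WT list and 2854 (73.5%) in the TRPS1-MT list. By exon the cover in TRPS1-WT and TRPS1-MT cells was 93.9% and 79.3% of exon 3, 48.6% and 91.2% of exon 4, 62.7% and 46.4% of exon 5, and 91.9% and 76.1% of the coding part of exon 7. The untranslated parts were nearly bare: peaks covered 0% of the 5′ UTR (552 bp) in both lists, and 0.145% and 2.17% of the 3′ UTR (5530 bp). Of the canonical introns (250515 bp), 0.738% was covered in the TRPS1-WT list and 4.28% in the TRPS1-MT list. Coding sequence was thus covered far more than the introns between the exons. The ratio of these shares was higher in TRPS1-WT cells, where less of the introns was covered. The lists differed in this beyond TRPS1 too: the median of the 7786 genes set beside it below had 1.47% and 4.48% of its introns covered.

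Among the 7786 protein-coding genes with at least 1500 bp of coding sequence in 2 or more exons, TRPS1 had the highest coding cover in each list. The median gene had 0% and 3.09% of its coding bases under a peak, 60.2% and 34.6% of the genes had none covered, and 1% of the genes exceeded 14.3% and 24.0%, in TRPS1-WT and TRPS1-MT cells respectively. The next gene was ZNF283 in the TRPS1-WT list (51.2%) and ZNF404 in the TRPS1-MT list (56.8%), both with a peak on 1 coding exon. Of the 33 genes with 4 or more long coding exons, TRPS1 was the only gene with a peak on all of them, in each list. TRPS1 has 4, the lowest number admitted, and a gene with more long coding exons needs more peaks to meet this. Of the same 33 genes, those with a peak on 3 or more long coding exons numbered 2 in TRPS1-WT (TRPS1 and TTN, the giant sarcomere protein titin) and 8 in TRPS1-MT cells.

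The lentiviral construct carries this same coding sequence, taken from an mRNA record, and so has neither the introns nor the promoter of TRPS1. Tags from construct DNA and tags from the endogenous exons map to the same places in hg19, and in these lists they cannot be told apart. The coding exon peaks were for that reason kept apart from the promoter, intron and flank peaks, and where values below include them this is said.

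The promoter of TRPS1 was bare in both lists. No peak had its midpoint from −2 kb to +1 kb of the canonical TSS (116681202), and the nearest peak of any kind ended 2145 bp away in TRPS1-WT and 3512 bp away in TRPS1-MT cells. Over all protein-coding genes, 55.6% had a peak at the canonical TSS in the TRPS1-WT list and 63.9% in the TRPS1-MT list. The TRPS1 promoter window (3001 bp) held 128 CpG dinucleotides, more than 59.9% of genes (median 112). Of the 2012 genes with a like number of CpGs (1 of 10 equal classes), 70.5% and 76.5% had such a peak. The weakest peaks called in the region had 9 and 10 tags, so lower signal at the TSS cannot be seen in these lists.

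Other starts of TRPS1 carried few and weak peaks. Of its 12 annotated TSSs, TRPS1-210 (116681710), a start just upstream of the canonical one, had a TRPS1-WT peak of 13 tags (6.92 to 22.2) at 116683347 to 116683514, and no TRPS1-MT peak. TRPS1-207 (116504448), a protein-coding transcript that starts inside intron 5, had TRPS1-MT peaks of 13 tags (6.92 to 22.2) at 116503709 to 116503988 and 27 tags (17.8 to 39.3) at 116506161 to 116506440, and no TRPS1-WT peak. Apart from the exon 3 peaks beside TRPS1-208, the remaining TSSs had none, and the farthest start (TRPS1-204, 116821899, 141 kb upstream of the canonical TSS) was 15593 bp and 13499 bp from the nearest peak. A promoter peak at any TSS was common, with the shares of all genes already given (67.5% and 76.5%). The strongest noncoding promoter peak of TRPS1 exceeded 9.43% and 28.5% of the strongest promoter peaks of other genes, whose medians were 38.0 and 47.0 tags. These promoter peaks depended on the window: from −1 kb to +1 kb of a TSS 0 remained in the TRPS1-WT list and 1 in the TRPS1-MT list.

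The antisense lncRNA TRPS1-AS1 (116521829 to 116523552, plus strand) was the 1 other annotated gene in the region and lies within intron 5. Its promoter window held TRPS1-MT peaks of 20 tags (12.2 to 30.9) at 116519706 to 116519985 and 14 tags (7.65 to 23.5) at 116521877 to 116522156, and no TRPS1-WT peak.

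Away from the coding exons the lists had little in common. Only 2 of 24 TRPS1-WT peaks (8.33%, Wilson interval 2.32 to 25.8) overlapped a peak of the other list. The same held for 2 of 76 in the TRPS1-MT list (2.63%, 0.725 to 9.10). Without the promoter peaks the shares were 2 of 23 (8.70%, 2.42 to 26.8) and 2 of 74 (2.70%, 0.744 to 9.33). Over all peaks away from promoters and coding exons outside the region, they were 26.8% for TRPS1-WT and 13.6% for TRPS1-MT. The interval at TRPS1 ended just below the share of all such peaks in TRPS1-WT (both round to 26.8%) and lay well below it in TRPS1-MT cells. This is not a test, and peaks of unlike strength are compared. The region's peaks away from coding exons had a median of 11.5 and 15.0 tags, against 14.0 and 17.0 over the whole lists. With the coding exon peaks, of which all 5 in each list overlapped, both lists shared 7 of 29 TRPS1-WT peaks (24.1%, 12.2 to 42.1) and 7 of 81 in TRPS1-MT cells (8.64%, 4.25 to 16.8), against 30.4% and 15.8% over the whole lists.

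The first site outside the exons that both lists held lies in the upstream intron, 74.4 kb upstream of the canonical TSS. It had 38 tags (26.9 to 52.2) in TRPS1-WT cells at 116755255 to 116755662 and 140 tags (118 to 165) in TRPS1-MT cells at 116755319 to 116755787. The summits were 5 bp apart. It was the strongest noncoding peak of the region in both lists, above 87.7% and 98.2% of the peaks of each list, and its tags in TRPS1-MT divided by those in TRPS1-WT cells gave a ratio of 3.68 (exact interval 2.56 to 5.42).

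The other shared site lies in intron 5, 92.4 kb downstream of the canonical TSS. It had 11 tags (5.49 to 19.7) in TRPS1-WT cells at 116588838 to 116589005 and 80 tags (63.4 to 99.6) in TRPS1-MT cells at 116588545 to 116589044, with the summits 98 bp apart. Its ratio was 7.27 (3.85 to 15.2), above 99.7% of 52620 ratios of overlapping peaks over the lists. These are fewer than the 52625 TRPS1-WT peaks with an overlap, so not every pair is among them. In the region each pair is given. The TRPS1-WT peak of the intron 5 site stood above only 27.8% of its list, and the 52620 pairs were not matched for strength. Because tags were not scaled, the ratios of both sites are read beside the median of those 52620 pairs, 1.33 (quartiles 0.938 and 1.95).

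The same ratio over the coding exons was 1.82 (1.57 to 2.12) for exon 7, 2.99 (2.30 to 3.91) for exon 3 and 1.95 (1.14 to 3.43) for exon 5. Exon 4 gave 3 pairs, with ratios of 0.815 (0.442 to 1.49), 1.74 (1.06 to 2.91) and 1.52 (0.943 to 2.47). The intervals of exon 3 and of both intron sites lay above the upper quartile of the 52620 pairs, whereas those of exons 4 and 5 included the median. The ratio was not equal over the exons: the intervals of exon 7 and exon 3 did not overlap, and their summits were 112 bp and 339 bp apart between the lists, so that different bases are compared.

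**Figure D2:**
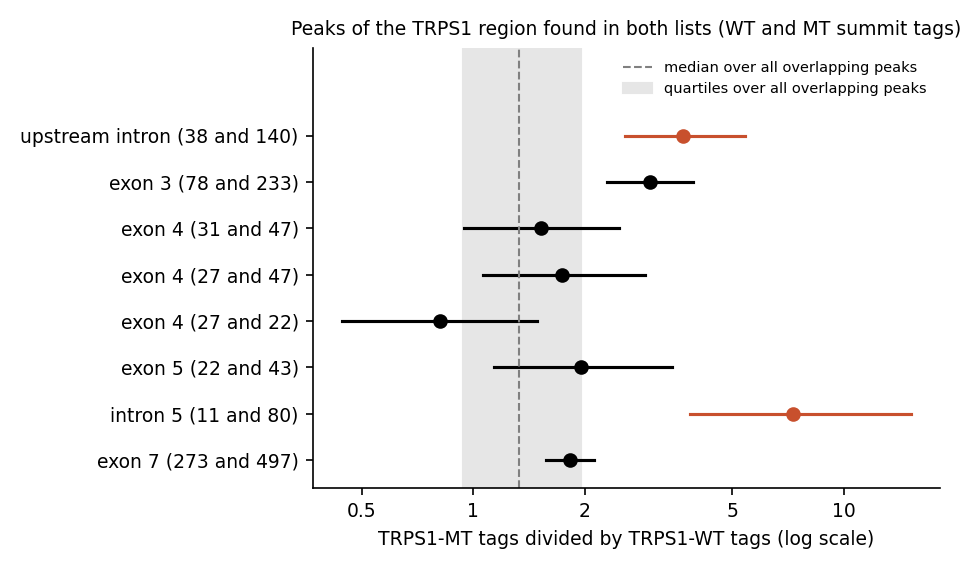
Summit tags of the TRPS1-MT list divided by those of the TRPS1-WT list (log scale, unscaled) at each pair of overlapping peaks of the TRPS1 region, with the exact 95% interval for counting error as a line and both tag numbers in the labels (black: coding exons, red: introns). The intron 5 site (7.27) and the upstream intron site (3.68) have the highest ratios, and the dashed line and grey band mark the median and quartiles of 52620 overlapping pairs over the lists.

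The strongest intron and flank peaks were found in the TRPS1-MT list. Beside the sites already given, a TRPS1-MT peak of 80 tags (63.4 to 99.6) lay in intron 5 at 116576045 to 116576421, 105 kb into the transcript, with a fold of 21.2 and above 96.9% of the list. No TRPS1-WT peak overlapped it. The next were 43 tags (31.1 to 57.9) in the upstream flank at 116871335 to 116871834, 190 kb from the canonical TSS, 32 tags (21.9 to 45.2) in the same flank at 116855729 to 116856079, and 31 tags (21.1 to 44.0) in intron 3 at 116625648 to 116625927. In the TRPS1-WT list the peaks after the site with 38 tags had 18 and 17 tags.

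Most of the peaks away from coding exons had the narrowest width of their list and stood on the genome-wide background (within 2% of it). The 24 TRPS1-WT peaks had 9 to 38 tags (median 11.5), 23 had the narrowest width, 22 stood on that background and 5 had more tags than the median peak of the list. The 76 TRPS1-MT peaks had 10 to 140 tags (median 15.0), 68 had the narrowest width, 56 stood on that background and 32 had more tags than the median peak of the list. The shares over the whole lists on that background were 56.0% and 62.4%. With only peaks of −log10 p of at least 10, 9 of the 24 TRPS1-WT and 39 of the 76 TRPS1-MT peaks remained. Over the whole lists, 44.5% of the TRPS1-WT peaks lay below a −log10 p of 10.8, and 41.4% of the TRPS1-MT peaks below 10.1.

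The locus held more TRPS1-MT than TRPS1-WT peaks, in lists of unequal size. Intron 5, the longest (169 kb), held 8 TRPS1-WT peaks (4.75 per 100 kb, exact Poisson interval 2.05 to 9.35) and 28 TRPS1-MT peaks (16.6, 11.0 to 24.0). Intron 1 (44.8 kb) held 1 and 4, intron 3 (14.1 kb) held 0 and 1, intron 4 (16.3 kb) held 2 and 1, and the short introns 2 and 6 held 0 in both lists. Taken over all introns of the gene (378 kb), there were 15 TRPS1-WT peaks (3.97 per 100 kb, 2.22 to 6.55) and 52 TRPS1-MT peaks (13.8, 10.3 to 18.1).

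Against 502 protein-coding genes of similar length (within 25%), TRPS1 stood below the median in the TRPS1-WT list and above it in the TRPS1-MT list. Its counting intervals (2.22 to 6.55 and 10.3 to 18.1 per 100 kb) included the median in both lists. In the TRPS1-WT list 17.3% of these genes had a lower intron density (median 6.14, quartiles 4.49 and 8.14). In the TRPS1-MT list 66.3% had a lower density (median 12.2, quartiles 9.32 and 14.8). The ratio of the densities was 3.47 for TRPS1 and 1.93 in the median gene (quartiles 1.63 and 2.33, 500 genes), and 97.0% of the genes had a lower ratio. The ratio rests on 15 TRPS1-WT peaks and on the sizes of the lists. When the TRPS1-MT list was cut to as many of its strongest peaks as the TRPS1-WT list holds, its density at TRPS1 was 5.82 per 100 kb against 3.97, the region held 40 peaks against 29, and 46.0% of the genes had a lower density. With only peaks of −log10 p of at least 10, the densities of TRPS1 were 1.32 and 6.62 per 100 kb, and 14.9% and 46.8% of the genes had a lower density.

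The genes whose pair of densities was nearest to that of TRPS1 (by the distance of the log2 densities over the 2 libraries) were GUCY1A2, a subunit of soluble guanylate cyclase (3.97 and 13.4 per 100 kb), MLIP, a muscle protein that binds lamin (3.87 and 12.9), RAPGEF4, an exchange factor that responds to cAMP (4.20 and 12.9), UVRAG, of autophagy (4.33 and 14.6), and SLC2A13, a myo-inositol transporter (3.58 and 13.4). They lie on chromosomes other than 8.

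The difference in density was wider than the gene. Without the coding exon peaks, the TRPS1 region had 3.99 TRPS1-WT peaks per 100 kb (2.56 to 5.94) and 12.6 TRPS1-MT peaks (9.96 to 15.8), a ratio of 3.17. The sequence 1 Mb on each side had 5.58 and 14.2 (ratio 2.54), 5 Mb on each side had 5.91 and 14.3 (2.42), chromosome 8 had 6.66 and 12.4 (1.87), and all chromosomes had 5.60 and 10.5 (1.88). The ratio in each window around the gene was thus above that of its chromosome. These windows are nested, the wider ones holding the gene and its region, so their ratios are not separate observations. The counts over all chromosomes include coding exon peaks, which those of the region do not. Leaving out 5 such peaks from each list raises the ratio of the region, which with them held 29 and 81 peaks. The copy number of the region in these cells was not measured here.

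TRPS1 stands far from other protein-coding genes. The nearest on its downstream side was CSMD3, a large membrane protein, 1970 kb away, whose promoters had no TRPS1-WT peak and a TRPS1-MT peak of 34 tags. The nearest on the upstream side was EIF3H, a subunit of translation initiation factor eIF3, 832 kb away, with 134 and 112 tags. At the ends of the region no strong peak was divided from the rest by the choice of 100 kb: the first peaks inside had 9 to 13 tags, and the first peaks outside had 10 to 12 tags, apart from a TRPS1-MT peak of 31 tags 5.10 kb beyond the downstream end.

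The GATA sequence, which the zinc finger of TRPS1 recognises, was searched for as AGATAA or AGATAG or TGATAA or TGATAG, on either strand, within 100 bp of each summit. It was present at 11 of 23 TRPS1-WT summits away from promoters and coding exons (47.8%, Wilson interval 29.2 to 67.0), against 40.9% of all such summits of the list (147632). In TRPS1-MT cells it was present at 37 of 74 summits (50%, 38.9 to 61.1), against 39.6% (284232). Both intervals included the share of the whole list. Within 50 bp the shares were 26.1% and 25.7%, against 23.4% and 22.2%. None of the 4 peaks at the sites found in both lists outside the exons, nor the TRPS1-MT peak of 80 tags at 116576045, held these letters within 100 bp.

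The AP-1 sequence (TGACTCA or TGAGTCA), which is common at active sites of epithelial cells, was present at 1 of the 23 TRPS1-WT summits (4.35%, 0.772 to 21.0) and at 5 of the 74 TRPS1-MT summits (6.76%, 2.92 to 14.9), against 10.4% and 5.91% over the lists. The TRPS1-MT peak of the shared intron 5 site was among them. A match is a run of letters and not a measured site.

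Genes tied to TRPS1 by function were set beside the locus. Of 18 such genes, 14 had a promoter peak in the TRPS1-WT list and 16 in the TRPS1-MT list, of which 13 were in both, beside the 67.5% and 76.5% of all protein-coding genes. At the canonical TSS the counts were 9 and 10, beside 55.6% and 63.9%. The tags below are those of the strongest peak at any TSS, and for GATA2, GATA4, IKZF1, ZFPM2, RUNX2 and GLI3 no peak lay at the canonical TSS in either list.

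Among GATA factors, which share the DNA sequence of TRPS1, GATA6, a factor of gut endoderm, had a promoter peak of 87 tags in the TRPS1-WT list and 171 in the TRPS1-MT list, GATA2 had 22 and 87, GATA3 had 11 and 20, and GATA4 had 50 and 38. GATA1, of red blood cells, had 0 and 19, and GATA5 had no promoter peak in either list. For ZFPM1 and ZFPM2, cofactors that bind GATA factors, the values were 75 and 0, and 13 and 37 tags. The blood regulator IKZF1, whose zinc fingers resemble those at the end of TRPS1, had 9 and 15.

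Genes of cartilage and bone, where TRPS1 acts, had among the highest and the lowest values of the list. SOX9, the regulator of cartilage formation, had 364 tags in the TRPS1-WT list and 261 in the TRPS1-MT list, GDF5, a joint growth factor, had 271 and 286 (19 and 26 at its canonical TSS), and STAT3, a signalling factor that TRPS1 represses in chondrocytes, had 413 and 295 (246 and 237 at its canonical TSS). RUNX2, the regulator of bone formation, had 16 and 27, BGLAP (osteocalcin) had 18 and 53, PTHLH, which delays cartilage maturation, had 0 and 12, and GLI3, a Hedgehog effector, had 0 and 17. DYNLL1 and RNF4, whose proteins bind TRPS1, had 24 and 40, and 27 and 61. Like TRPS1, the genes GATA2, GATA4, GATA5, IKZF1, GLI3, RUNX2 and ZFPM2 had no peak at the canonical promoter in either list. The canonical promoters of SOX9, GATA3, GATA6, STAT3, GDF5, BGLAP, DYNLL1 and RNF4 carried one in both lists. For GATA1 and PTHLH this held in the TRPS1-MT list alone, and for ZFPM1 in the TRPS1-WT list alone.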

How the data were processed

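Flag CUT&Tag peak lists of 1 TRPS1-WT and 1 TRPS1-MT library of HCT116 cells were used. Reads had been filtered, mapped to hg19 with Bowtie 0.12.8 and annotated with HOMER by the authors, the tools being named in the submitters' processing notes too. Peaks had been called by the authors in each library with MACS, in a release before MACS2 by the methods but in the file layout of MACS2. The labels name hg38 beside hg19, and peak ends fitted GRCh37. No source used here names a control library. The deposited values are a score (10 times −log10 q, whole-number part), −log10 p and −log10 q, a fold ratio of the summit over the background near it, and the distance from peak start to summit.

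Summit tags and local background were recovered from the deposited fold and −log10 p under the Poisson model of MACS2, to within 0.01 of −log10 p, which failed for 3 and 2 peaks. This and the overlaps were tested on simulated data. Only chromosomes 1 to 22, X and Y were used, which left out 105 and 142 peaks. Genes were from GENCODE release 44 mapped to GRCh37. A peak over at least 1 bp of canonical coding sequence was put with the coding exons, and others were placed by midpoint: promoter (−2 kb to +1 kb of any TSS), then exon, intron or flank. Overlap was at least 1 bp. Shares have Wilson, tags and densities exact Poisson, and tag ratios exact binomial intervals at the 95% level, for counting error only.

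With 1 library per condition no test was made. TRPS1, its region and the gene lists were chosen with earlier results of these data known. Named genes were TRPS1, its nearest protein-coding neighbours, the 5 genes of similar length with the nearest intron densities, 18 genes tied to TRPS1 and 10 colon epithelial genes. ZNF283, ZNF404, TTN and other genes with high coding cover were named after their values were seen. Alternatives were stricter peaks, equal list sizes, other overlap rules, promoter windows, transcripts, flanks, gene lengths and summit windows. Sequence of the locus is not reported here. The work was done with scipy 1.17.1, pandas 2.3.3, matplotlib 3.10.9 and numpy 2.4.6 in Python 3.11.15.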

Additional observations from a re-analysis of the deposited data

How the results depend on the processing

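The 5 coding exon peaks of TRPS1 in each list were found under every alternative tried for them. In all, 30 recomputed values were classed as the same and 20 as moved. This leaves out 6 TRPS1-WT values at equal list sizes, which could not move because the shorter list was left whole. Values classed as the same were not all close. With a flank of 200 kb the region held 40 and 102 peaks, and with stricter peaks the TRPS1-WT GATA share was 62.5%. With only peaks of −log10 p of at least 10, the region held 14 and 44 peaks in TRPS1-WT and TRPS1-MT cells, 42.9% of the former were in both lists, 1 TRPS1-MT promoter peak remained, intron densities were 1.32 and 6.62 per 100 kb, and 46.8% of genes of similar length were below TRPS1 in TRPS1-MT cells. With the longer list reduced to as many of its strongest peaks as the shorter one holds, the TRPS1-MT values were 40 peaks in the region, 17.5% in both lists, 1 promoter peak, 5.82 intron peaks per 100 kb and 46.0% of similar genes below. From −1 kb to +1 kb of any TSS, 0 TRPS1-WT and 1 TRPS1-MT promoter peaks remained, and at the canonical TSS 0 and 0. With the canonical transcript only, 23.6% and 61.9% of similar genes were below. Within 50 bp of the summit the GATA shares were 26.1% and 25.7%, as a shorter window holds fewer matches. No paired analysis was possible because there was 1 library per condition and no test. The depth limits what can be seen: the lowest peaks of the region had 9 and 10 tags, and lower signal was not called.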

Other observations

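After TRPS1, the genes with the highest coding cover over both lists together, named after their values were seen, were mostly KRAB zinc finger genes, repressors whose many zinc fingers are encoded in a single long last exon. ZNF283 had 51.2% of its coding bases under TRPS1-WT peaks and 54.6% under TRPS1-MT peaks, ZNF404 had 48.4% and 56.8%, ZNF100 had 44.6% and 44.3%, and ZNF519 had 37.9% and 51.8%. KLHL31, a Kelch protein of muscle, had 33.4% and 50%. In the TRPS1-WT list each of these genes had a peak on 1 coding exon, against 4 in TRPS1, and in the TRPS1-MT list on 1 or 2. Among the 33 genes with 4 or more long coding exons, those with a TRPS1-MT peak on 3 or more were, beside TRPS1 and TTN, FAT1, FAT4, FCGBP, KMT2D, PCLO and TECTA.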
